A study of Mus musculus with 10 samples.

Results

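The genes described here are 9 genes of BMP (bone morphogenetic protein) and hedgehog signalling in the mouse small intestine: Ihh, Bmp4, Bmpr1a, Id1, Id2, Id3, Smad6, Smad7 and Bambi. They were taken by name. A probe set, the group of short probes that measures a transcript on the array, was used where the platform table gives it a single gene symbol, and each gene was represented by its probe set with the highest mean over the 10 arrays. All 9 named genes were measured, by 15 probe sets in all, out of 12393 genes on the Affymetrix 430A 2.0 mouse array. Each value is a log2 expression level as the submitters deposited it, and a difference of 1 is a doubling.

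RNA came from 5 groups of epithelial cells of C57BL/6 mice with 2 arrays each. Lgr5+ISC were intestinal stem cells of Lgr5-eGFP-Cre mice that had been sorted by flow cytometry for GFP. Sec-Pro were crypt cells enriched for secretory progenitors in either of 2 ways, by deletion of Rbpj, the DNA-binding factor through which Notch receptors act, or by dosing mice with dibenzazepine (DBZ), a Notch inhibitor. Ent-Pro (enterocyte progenitors) were crypt cells and ENT (mature enterocytes) villus cells, both of Atoh1-/- mice, whose epithelium is depleted of secretory cells. The stem cells were the only sorted group, so the other groups are crypt or villus preparations, released with EDTA. Ent-Pro and ENT share the Atoh1 deletion, and neither has a counterpart from a wild-type animal here. The labels give no age, DBZ dose or Cre driver of the Rbpj deletion, and leave it unsaid whether replicate arrays were from different animals. The p-values therefore measure the spread between these arrays, which may be technical.

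In the intestine, Ihh is a ligand secreted by the epithelium and received by mesenchymal cells through Ptch1 and Smo, which act on the Gli transcription factors. The mesenchyme in turn secretes BMP ligands such as Bmp4. These bind a complex of type I receptors such as Bmpr1a and type II receptors such as Bmpr2 on the epithelium, and the activated complex phosphorylates Smad proteins that join Smad4 in the nucleus. Id1, Id2 and Id3, which bind and block other helix-loop-helix factors, are direct targets of this signal. Smad6 and Smad7 are inhibitory Smads that are switched on by the signal and act back on the receptors. Bambi is a pseudoreceptor with no kinase domain that occupies receptor complexes. BMP activity is known to be high along the villus and low at the crypt base.

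Promoter sequences are shown for Ihh, Id3 and Smad6, a ligand, a target and an inhibitor that were each higher in ENT than in Lgr5+ISC, so that the start regions of genes with that shared direction can be read side by side. RefSeq (GRCm38.p6) gave a promoter for 6 of the 9 genes (Ihh, Bmp4, Bmpr1a, Id2, Id3 and Smad6). Each run holds 250 bases before the annotated transcript start and the 4 bases that follow. Those 4 were included because a match in Smad6 crosses the start. Capitals mark matches to GTCT or its other strand AGAC, the short box bound by receptor-activated Smads and Smad4, or to GTCTAGAC, a palindrome that joins 2 such boxes. GGCGCC, a box linked to BMP-activated Smads that is the same on both strands, was searched too and is absent from these 3 runs.
Ihh, chr1:74951669-74951922, minus strand: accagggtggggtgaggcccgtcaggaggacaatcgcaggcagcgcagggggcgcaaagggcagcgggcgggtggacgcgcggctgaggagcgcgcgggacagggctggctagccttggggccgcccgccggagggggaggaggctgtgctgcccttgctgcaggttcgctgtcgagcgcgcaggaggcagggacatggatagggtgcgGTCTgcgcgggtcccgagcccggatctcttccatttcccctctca
Id3, chr4:136143572-136143825, plus strand: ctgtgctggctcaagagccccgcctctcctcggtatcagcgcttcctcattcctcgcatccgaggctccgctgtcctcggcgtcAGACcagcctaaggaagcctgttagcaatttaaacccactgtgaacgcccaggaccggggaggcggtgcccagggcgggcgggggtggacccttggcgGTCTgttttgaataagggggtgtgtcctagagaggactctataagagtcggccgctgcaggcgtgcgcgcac
Smad6, chr9:64022056-64022309, minus strand: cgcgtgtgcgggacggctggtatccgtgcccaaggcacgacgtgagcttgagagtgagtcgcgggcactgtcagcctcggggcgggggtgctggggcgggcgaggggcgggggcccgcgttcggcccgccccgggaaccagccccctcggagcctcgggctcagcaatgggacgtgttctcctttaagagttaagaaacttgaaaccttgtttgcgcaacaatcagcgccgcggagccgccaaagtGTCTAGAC
The Ihh run held 1 match to GTCT, at bases 210 to 213 counted from its 5′ end. Id3 held 2, at bases 85 to 88 and 183 to 186. Smad6 ended in GTCTAGAC at bases 247 to 254. Of 32851 promoters of this length, 83.3% held GTCT on either strand, 9.68% held GGCGCC and 56 (0.17%) held GTCTAGAC. Among the other 3 genes, Bmp4 held 1 GTCT, Bmpr1a 1 GGCGCC, and Id2 1 of each. A match is a run of letters, not a measured site, and GTCT at this frequency does not set these promoters apart. The length of the runs was set with the Smad6 match known, so the 0.17% for GTCTAGAC is no test of that match.

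The values ran from 2.90 to 15.18 and the median of an array from 6.83 to 6.98. Arrays of the same group correlated at 0.982 to 0.995 over all genes (5 pairs), against 0.886 to 0.980 for arrays of different groups (40 pairs). The mean of 9 stem cell markers was 11.20 and 11 in Lgr5+ISC and 8.22 to 9.96 elsewhere. Goblet cell markers (7 genes) averaged 13.22 to 13.74 in the Sec-Pro arrays and 6.38 to 6.78 in the Atoh1-/- arrays. Enterocyte markers (12 genes) averaged 13.46 and 13.57 in ENT, but 12.10 to 13.26 in the Sec-Pro arrays as well, against 12.32 and 12.70 in Ent-Pro. A gene was taken as near background in a group where each array lay less than 1 log2 above the mean of 3 bacterial control probe sets on that array (3.62 to 3.82), since no such RNA is in the sample.

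ENT, the villus cells, held the highest mean of Ihh, Id1, Id3, Smad6 and Smad7 among the 5 groups, and Lgr5+ISC the lowest of Ihh, Bmpr1a, Id3 and Smad7. For Bmpr1a the Lgr5+ISC and ENT arrays overlapped, and its dimmest probe set read highest in Lgr5+ISC. Bambi followed another order, with its highest levels in Sec-Pro and its lowest in the Atoh1-/- groups. Bmp4 was near background in 4 groups and at about that bound in Ent-Pro.

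**Figure D1:**
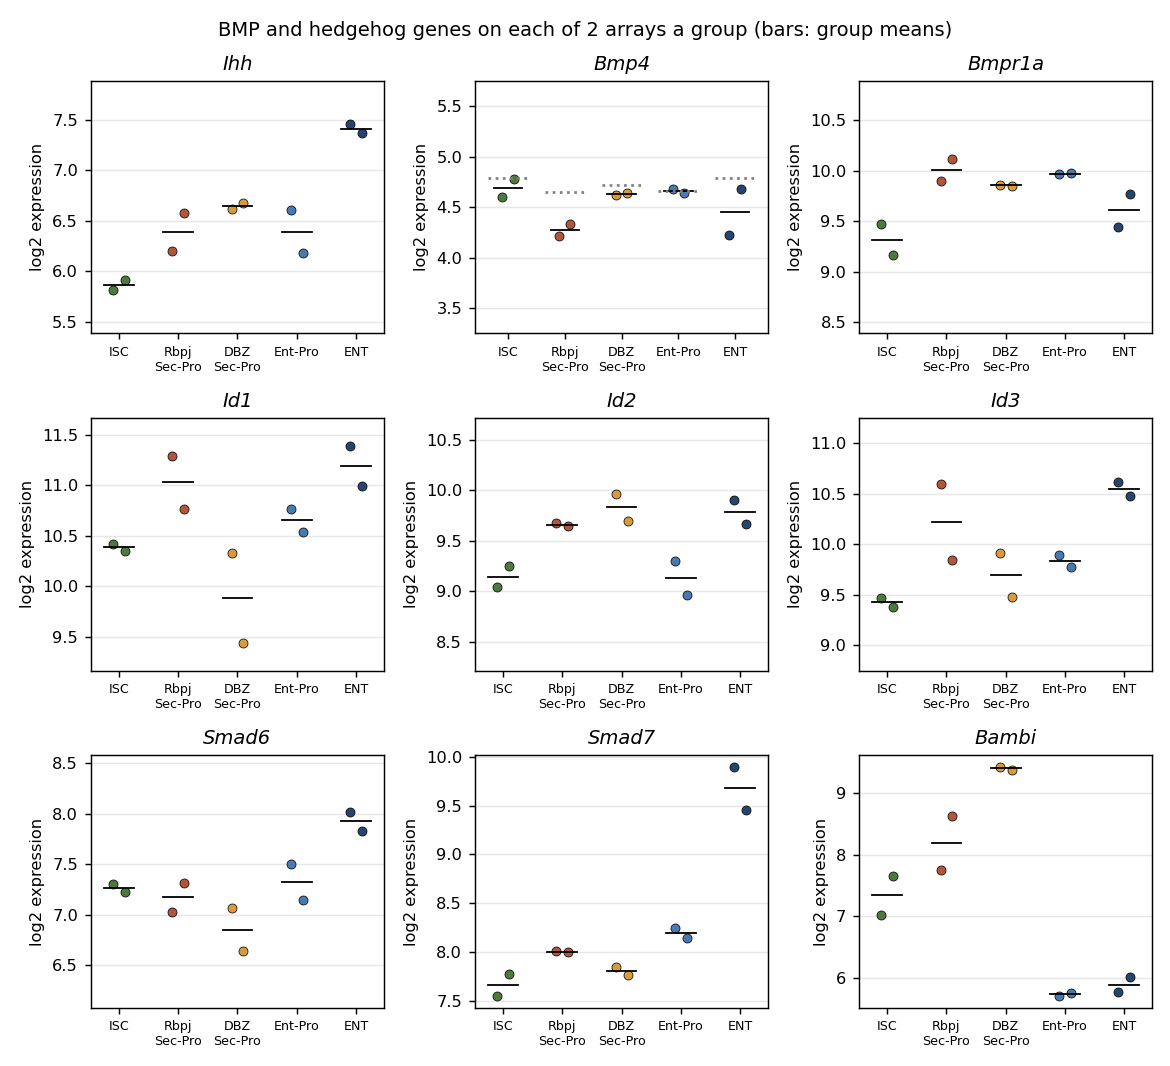
Log2 expression (y axis) of the 9 genes on each array (points) in the 5 groups (x axis), with horizontal bars at the group means and, for Bmp4, dotted lines 1 log2 above the mean of the absent bacterial controls in that group. Both ENT points of Ihh and Smad7 lie above all other points, Bambi separates into low Atoh1-/-, middle Lgr5+ISC and high Sec-Pro points, and the Bmp4 points lie below the dotted lines in every group but Ent-Pro, where they straddle it.

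Differences were tested with limma on all 10 arrays and called at a Benjamini-Hochberg adjusted p under 0.05 over all 12393 genes. From Ent-Pro to ENT, the step from crypt to villus within Atoh1-/- epithelium, 5 of the 9 genes rose (Ihh, Id2, Id3, Smad6, Smad7) and none fell, where 38.7% of all genes were called, 18.5% higher and 20.2% lower. From Lgr5+ISC to ENT, 6 rose and Bambi fell, where 49.2% of all genes were called, 22.3% higher and 26.8% lower. From Lgr5+ISC to Ent-Pro, Bmpr1a and Smad7 rose and Bambi fell, where 25.5% were called, 12.1% higher and 13.5% lower. Median log2 differences of the 9 genes were 0.60, 0.66 and 0.27 in these comparisons, against 0.02, -0.01 and -0.02 over all genes.

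Against Lgr5+ISC, 5 of the 9 genes were higher in Rbpj Sec-Pro, where 47.1% of all genes were called (17.7% higher, 29.4% lower), and 4 were higher in DBZ Sec-Pro, where 36.2% were called (15.9% higher, 20.3% lower). Against ENT, 4 of 9 were called in Rbpj Sec-Pro (35.8% of all genes) and 6 in DBZ Sec-Pro (45.1%). Against Ent-Pro, Id2 and Bambi were called in both, where 26.3% of all genes were called for Rbpj Sec-Pro and 18.6% for DBZ Sec-Pro. The share of higher genes among all called depended on the scaling. It was 47.8% from Ent-Pro to ENT, 45.4% from Lgr5+ISC to ENT and 47.3% from Lgr5+ISC to Ent-Pro, but 58.3%, 62.9% and 59.9% with arrays centred on their medians, which moved the median gene of these comparisons by over 0.1 log2, to 0.15, 0.24 and 0.10. For Rbpj and DBZ Sec-Pro against Lgr5+ISC it was 37.6% and 44.0%, but 52.1% and 54.7% with cyclic loess. These comparisons share arrays and are not independent of each other. With 9 genes and background shares of this size, the counts describe the genes and are no test of the list. Left-out arrays changed several counts by over 1.5 times. The count from Ent-Pro to ENT was 3 without either Lgr5+ISC array or ENT replicate 2, and 2 without Ent-Pro replicate 2 or ENT replicate 1. From Lgr5+ISC to ENT it was 4 without Lgr5+ISC replicate 1 or ENT replicate 1, and from Lgr5+ISC to Ent-Pro 1 without Lgr5+ISC replicate 2 or Ent-Pro replicate 1. For Rbpj Sec-Pro against Lgr5+ISC it was 1 without either Lgr5+ISC array, 3 without Rbpj replicate 1 and 2 without Rbpj replicate 2. Rbpj Sec-Pro against Ent-Pro fell to 1 without any single array but Rbpj replicate 2 or the DBZ arrays, and DBZ Sec-Pro against Ent-Pro to 1 without Ent-Pro replicate 2.

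**Figure D2:**
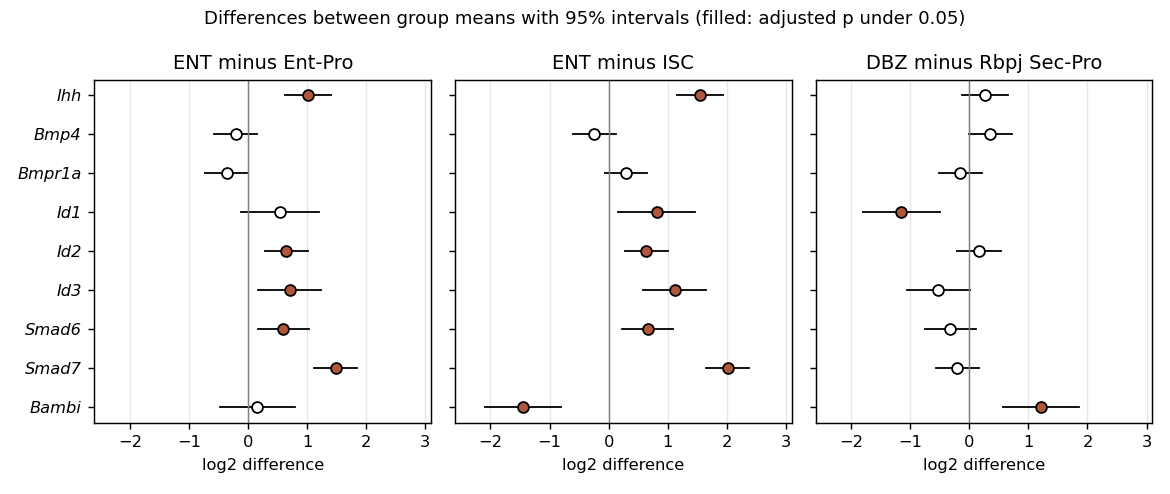
Log2 difference between group means (x axis) of the 9 genes (y axis) in 3 comparisons, as points with 95% intervals from limma, filled where the adjusted p was under 0.05. Smad7 and Ihh stand farthest right in both comparisons of ENT, and Id1 and Bambi are the filled points of DBZ against Rbpj Sec-Pro, on opposite sides of 0.

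Ihh, the hedgehog ligand of the epithelium, read 5.81 and 5.92 in Lgr5+ISC, 6.20 and 6.57 in Rbpj-deleted Sec-Pro, 6.62 and 6.67 in DBZ Sec-Pro, 6.61 and 6.18 in Ent-Pro, and 7.45 and 7.37 in ENT villus cells. The ENT arrays stood above every other array and the Lgr5+ISC arrays below every other, while the 3 crypt progenitor groups overlapped or nearly touched. Ihh was 2.02 times higher in ENT than in Ent-Pro (log2 difference 1.02, SE 0.17, adjusted p = 0.0017) and 2.92 times higher than in Lgr5+ISC (1.54, SE 0.17, adjusted p = 9.3e-05). In the order of group means, the step from Lgr5+ISC (5.87 ± 0.07, SD, n = 2) to Rbpj Sec-Pro (6.39 ± 0.26) had an adjusted p of 0.035. The next steps, to Ent-Pro (6.39 ± 0.30) and to DBZ Sec-Pro (6.65 ± 0.04), did not pass (adjusted p = 0.99 and 0.36), and the last, to ENT (7.41 ± 0.06), did (0.0067). Ihh was also 0.78 log2 above Lgr5+ISC in DBZ Sec-Pro (adjusted p = 0.0075), and the gap of 0.53 between Ent-Pro and Lgr5+ISC had an adjusted p of 0.055. That gap was called with arrays centred on their medians (0.65, adjusted p = 0.023), with cyclic loess (0.67, 0.018) and without either Rbpj array (0.53, 0.032) or Ent-Pro replicate 2 (0.74, 0.039). The call of Rbpj Sec-Pro against Lgr5+ISC was lost without either Lgr5+ISC array (0.47 and 0.57, adjusted p = 0.14 and 0.085), without Rbpj replicate 2 (0.34, 0.17) and without either DBZ array (0.52, 0.051).

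Bmp4, the mesenchymal ligand, read 4.60 and 4.78 in Lgr5+ISC, 4.21 and 4.34 in Rbpj-deleted Sec-Pro, 4.62 and 4.64 in DBZ Sec-Pro, 4.68 and 4.64 in Ent-Pro, and 4.22 and 4.68 in ENT. It was near background in 4 groups, and in Ent-Pro it was below the bound on replicate 1 (4.681 against 4.70) and just above it on replicate 2 (4.637 against 4.628). No order of its group means can be read, and none of the 10 comparisons was called. In bulk RNA, fewer cells of a type and less RNA per cell cannot be told apart.

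Bmp2, a BMP ligand that the epithelium makes, had a wide range. It read 7.0 and 6.90 in Lgr5+ISC, 8.06 and 8.13 in Rbpj-deleted Sec-Pro, 7.94 and 8.15 in DBZ Sec-Pro, 7.79 and 7.68 in Ent-Pro, and 9.92 and 10.02 in ENT. Every ENT array was above, and every Lgr5+ISC array below, all other arrays, as for Ihh. Bmp2 was 4.72 times higher in ENT than in Ent-Pro (log2 difference 2.24, SE 0.12, adjusted p = 2.7e-05) and 8.12 times higher than in Lgr5+ISC (3.02, SE 0.12, adjusted p = 1.9e-06). Of the 14 other BMP ligand genes measured, Bmp2 among them, 5 rose from Ent-Pro to ENT and none fell. Over all genes, 18.5% rose and 20.2% fell there. The median difference of the 14 was 0.09, against 0.02 over all genes. One of the 5, Bmp1, is a procollagen protease and not a ligand of these receptors. From Lgr5+ISC to ENT, 5 of the 14 rose and 2 fell, where 22.3% of all genes rose and 26.8% fell. Bmp8a was 1.78 log2 higher in ENT than in Ent-Pro (adjusted p = 6.3e-04) and Bmp8b 1.05 higher (adjusted p = 0.023), although these are close paralogs whose probes may share signal. Bmp7 was 2.26 times lower in ENT than in Lgr5+ISC (-1.18, adjusted p = 0.023). The Bmp7 call was lost with its dimmer probe set (-0.28, adjusted p = 0.22) and without Lgr5+ISC replicate 1 (-1.0, adjusted p = 0.13), Lgr5+ISC replicate 2 (-1.35, 0.052) or ENT replicate 2 (-0.97, 0.13). The Bmp8b call against Ent-Pro was lost without any of the 4 arrays compared (0.90 to 1.21, adjusted p = 0.052 to 0.14).

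Bmpr1a, the type I receptor, read 9.47 and 9.17 in Lgr5+ISC, 9.90 and 10.11 in Rbpj-deleted Sec-Pro, 9.86 and 9.85 in DBZ Sec-Pro, 9.97 and 9.98 in Ent-Pro, and 9.45 and 9.78 in ENT. Its Lgr5+ISC arrays lay below those of the 3 crypt progenitor groups, and the ENT arrays overlapped the range of Lgr5+ISC. It was 1.57 times higher in Ent-Pro than in Lgr5+ISC (0.65, SE 0.16, adjusted p = 0.015), 1.61 times higher in Rbpj Sec-Pro (0.69, adjusted p = 0.0068) and 1.45 times higher in DBZ Sec-Pro (0.54, adjusted p = 0.026). ENT differed from Lgr5+ISC by 0.29 (adjusted p = 0.16) and from Ent-Pro by -0.36 (adjusted p = 0.11). No step between neighbours in its order of means passed. All 3 calls against Lgr5+ISC were lost without Lgr5+ISC replicate 2, with differences of 0.50 for Ent-Pro (adjusted p = 0.11), 0.54 for Rbpj Sec-Pro (0.053) and 0.39 for DBZ Sec-Pro (0.17). The Ent-Pro call was also lost without either Ent-Pro array (0.66 and 0.65, adjusted p = 0.078 and 0.082), and the DBZ call without either DBZ array (0.53 and 0.54, adjusted p = 0.094 and 0.089).

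Bmpr1a has 5 probe sets, and they disagreed. In a test of each probe set by itself, the 4 with the higher means were all higher in Ent-Pro than in Lgr5+ISC (0.65, 0.54, 1.15 and 1.37). From Lgr5+ISC to ENT, 3 of those 4 rose (1.01, 1.76 and 1.67, adjusted p = 1.7e-04, 2.2e-05 and 2.0e-04), and the exception was 1425492_at, the probe set used (0.29). The dimmest, 1451729_at, went the other way, at -0.67 in Rbpj Sec-Pro against Lgr5+ISC (adjusted p = 0.0025), where the probe set used gave 0.69. Taken as the mean of its probe sets, Bmpr1a was 0.90 higher in ENT than in Lgr5+ISC (adjusted p = 2.1e-04). Whether a Bmpr1a difference between ENT and Lgr5+ISC is called thus depended on the probe set.

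**Figure D3:**
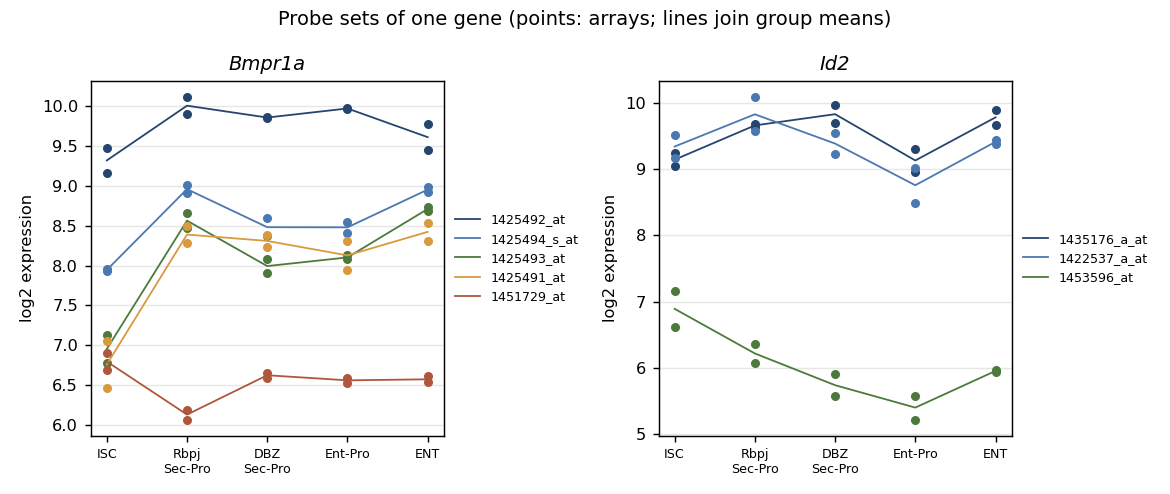
Log2 expression (y axis) of each probe set of Bmpr1a (left) and Id2 (right) on each array (points) in the 5 groups (x axis); lines join group means to guide the eye and the groups have no set order. The Bmpr1a probe set 1451729_at dips in Rbpj Sec-Pro where the other 4 are high, and the Id2 probe set 1453596_at is highest in Lgr5+ISC where the other 2 are not.

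Of 9 other BMP and activin receptor genes measured, 3 rose and 1 fell from Ent-Pro to ENT, where 38.7% of all genes were called. The counts were the same from Lgr5+ISC to ENT, where 49.2% were called. Bmpr2, the type II BMP receptor, read 5.43 and 5.62 in Lgr5+ISC, 4.83 and 5.44 in Ent-Pro, and 6.33 and 6.23 in ENT villus cells. The ENT arrays were above all others, and the difference from Ent-Pro was 2.21-fold (1.14, SE 0.21, adjusted p = 0.0028). Acvr1, a type I receptor, was 1.65 times higher in ENT than in Ent-Pro (0.72, adjusted p = 0.005), and Eng, a co-receptor best known from endothelium, 1.48 times (0.56, adjusted p = 0.013). Acvr2b, an activin type II receptor, ran the opposite way, at 8.77 and 8.89 in Lgr5+ISC, 6.55 on both Ent-Pro arrays, and 6.02 and 5.74 in ENT. It was 7.72 times lower in ENT than in Lgr5+ISC (-2.95, SE 0.22, adjusted p = 1.2e-05). The fall of Acvr2b from Ent-Pro to ENT (-0.67, adjusted p = 0.04) was lost without either Lgr5+ISC array (-0.67, 0.061), Ent-Pro replicate 1 or 2 (-0.67, 0.13 and 0.14), or ENT replicate 1 or 2 (-0.81 and -0.53, 0.06 and 0.19). The rise of Acvr1 was lost with its dimmest probe set (0.14, adjusted p = 0.42). The rise of Eng was lost with its dimmer probe set (0.23, 0.29) and without Ent-Pro replicate 1 (0.48, adjusted p = 0.095) or ENT replicate 1 (0.45, adjusted p = 0.09).

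Bambi, the pseudoreceptor, was called in 9 of the 10 comparisons, the most of the 9 genes. It read 7.03 and 7.65 in Lgr5+ISC, 7.76 and 8.63 in Rbpj-deleted Sec-Pro, 9.43 and 9.38 in DBZ Sec-Pro, 5.70 and 5.76 in Ent-Pro, and 5.77 and 6.01 in ENT villus cells. The 4 Atoh1-/- arrays were the lowest and the DBZ arrays the highest. Only Ent-Pro and ENT, and Lgr5+ISC and Rbpj Sec-Pro, came close to each other, and the arrays of no pair of groups overlapped. Bambi was 12.7 times higher in DBZ Sec-Pro than in Ent-Pro (3.67, SE 0.28, adjusted p = 6.2e-05) and 5.52 times higher in Rbpj Sec-Pro than in Ent-Pro (2.46, SE 0.28, adjusted p = 0.0012). From Lgr5+ISC, it was 4.17 times higher in DBZ Sec-Pro (2.06, adjusted p = 6.4e-04), 3.05 times lower in Ent-Pro (-1.61, adjusted p = 0.0036) and 2.74 times lower in ENT (-1.45, adjusted p = 0.0022). Ent-Pro and ENT differed by 0.16 (95% interval -0.48 to 0.80, adjusted p = 0.72).

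The mean of the 7 goblet cell markers had the same order over the groups as Bambi, although single markers such as Agr2 and Zg16 did not. It was 11.10 and 11.29 in Lgr5+ISC, 13.22 and 13.34 in Rbpj-deleted Sec-Pro, 13.57 and 13.74 in DBZ Sec-Pro, 6.38 and 6.39 in Ent-Pro, and 6.41 and 6.78 in ENT. Paneth markers (4 genes) ran from 12.86 to 13.83 in Sec-Pro, from 11.15 to 11.85 in Lgr5+ISC and from 7.17 to 9.38 in the Atoh1-/- groups. Single Paneth markers varied in the Atoh1-/- groups. Lyz1 read 10.31 and 11.15 in Ent-Pro, Itln1 8.36 and 11.55 in ENT, and Pla2g2a 5.14 to 5.74 in both groups. All 7 goblet markers fell from Lgr5+ISC to Ent-Pro, as Bambi did. Enteroendocrine markers (8 genes) averaged 8.81 and 9.04 in Lgr5+ISC, 10.22 to 11.14 in Sec-Pro and 5.90 to 6.42 in the Atoh1-/- groups. All 8 were higher in each Sec-Pro group than in Ent-Pro, and 7 of the 8 fell from Lgr5+ISC to Ent-Pro. The part of the secretory cell share in the Bambi values was not tested. Bambi was 1.81 times higher in Rbpj Sec-Pro than in Lgr5+ISC (0.85, SE 0.28, adjusted p = 0.034), and this call was lost without Lgr5+ISC replicate 1 (0.54, adjusted p = 0.22), Rbpj replicate 2 (0.42, 0.19), either DBZ array (0.85, 0.051) or either Ent-Pro array (0.85, 0.052).

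The inhibitory Smads rose in the villus cells. Smad7 read 7.55 and 7.78 in Lgr5+ISC, 8.01 and 8.0 in Rbpj-deleted Sec-Pro, 7.84 and 7.76 in DBZ Sec-Pro, 8.24 and 8.14 in Ent-Pro, and 9.90 and 9.46 in ENT. Both ENT arrays were more than 1 log2 above every other array. Smad7 was 2.80 times higher in ENT than in Ent-Pro (1.49, SE 0.16, adjusted p = 1.8e-04) and 4.04 times higher than in Lgr5+ISC (2.02, SE 0.16, adjusted p = 1.6e-05). Rbpj Sec-Pro and DBZ Sec-Pro differed from ENT by -1.67 and -1.88 (3.19 and 3.67 times lower, adjusted p = 2.4e-04 and 5.4e-05). These 4 calls of Smad7 held with each array left out in turn. The smaller difference between Ent-Pro and Lgr5+ISC (0.53, SE 0.16, adjusted p = 0.041) was lost without Lgr5+ISC replicate 1 (0.41, 0.20) or 2 (0.64, 0.069), Ent-Pro replicate 1 (0.48, 0.19) or 2 (0.58, 0.12), or either DBZ array (0.53, 0.058), and with a trend of the variance on intensity (0.53, 0.052). In the order of its means, the step from Ent-Pro to ENT was the only one between neighbours to pass.

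Smad6 read 7.31 and 7.23 in Lgr5+ISC, 7.03 and 7.32 in Rbpj-deleted Sec-Pro, 7.07 and 6.64 in DBZ Sec-Pro, 7.51 and 7.15 in Ent-Pro, and 8.02 and 7.83 in ENT villus cells. The ENT arrays were again above all others, and the other 4 groups overlapped in part, with DBZ Sec-Pro replicate 2 the lowest. Smad6 was 1.58 times higher in ENT than in Lgr5+ISC (0.66, SE 0.19, adjusted p = 0.017), and DBZ Sec-Pro was 2.11 times lower than ENT (-1.07, adjusted p = 0.0018). The rise from Ent-Pro to ENT (0.60, SE 0.19, adjusted p = 0.033) was lost without either Lgr5+ISC array (0.60, 0.051), Ent-Pro replicate 2 (0.42, 0.23), ENT replicate 1 (0.50, 0.16) or ENT replicate 2 (0.69, 0.062). The Smad6 rise from Lgr5+ISC was lost without Lgr5+ISC replicate 1 (0.70, 0.055) or 2 (0.62, 0.081) or ENT replicate 1 (0.56, 0.097), and its fall from ENT to Rbpj Sec-Pro (-0.75, 0.015) without Rbpj replicate 1 (-0.61, 0.062) or ENT replicate 1 (-0.66, 0.086).

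Id1, the first of the 3 Id targets, read 10.42 and 10.35 in Lgr5+ISC, 11.29 and 10.77 in Rbpj-deleted Sec-Pro, 10.33 and 9.44 in DBZ Sec-Pro, 10.77 and 10.54 in Ent-Pro, and 11.39 and 10.99 in ENT. ENT was highest by mean, but Rbpj replicate 1 lay between its arrays, and the DBZ arrays stood far apart (mean 9.89 ± 0.63, SD, n = 2). In DBZ replicate 2, the lowest array for Id1, stromal markers averaged 5.70 and leukocyte markers 7.60, against 5.30 and 6.95 in DBZ replicate 1. The stromal genes did not share a direction. The fibroblast gene Dcn read 8.76 in DBZ replicate 2 against 5.49 in replicate 1, and Col1a1 4.819 against 4.985. The part of these markers in the Id1 value was not tested. Id1 was 1.75 times higher in ENT than in Lgr5+ISC (0.81, SE 0.29, adjusted p = 0.045) and 2.47 times lower in DBZ Sec-Pro than in ENT (-1.30, SE 0.29, adjusted p = 0.006). The rise from Ent-Pro to ENT was 0.54 with an adjusted p of 0.19. The Id1 call of ENT against Lgr5+ISC was lost without Lgr5+ISC replicate 1 (0.84, 0.12) or 2 (0.77, 0.15), either Ent-Pro array (0.81, 0.062), ENT replicate 1 (0.61, 0.22) or 2 (1.0, 0.055), and when p-values were adjusted over all 10 comparisons together (0.06). Without DBZ replicate 1, Id1 of DBZ Sec-Pro was called below Lgr5+ISC and Ent-Pro (-0.94 and -1.21), against -0.50 and -0.77 with it (adjusted p = 0.22 and 0.10). Id1 of DBZ Sec-Pro was also called below Ent-Pro with a replicate block in the fit. Id1 of Rbpj Sec-Pro was called above Lgr5+ISC without either DBZ array (0.65) and with that block.

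Id3 read 9.47 and 9.38 in Lgr5+ISC, 10.59 and 9.85 in Rbpj-deleted Sec-Pro, 9.91 and 9.48 in DBZ Sec-Pro, 9.90 and 9.77 in Ent-Pro, and 10.61 and 10.47 in ENT. Rbpj replicate 1 reached the ENT arrays, and the other arrays lay below them. Rbpj replicate 1 also had the highest leukocyte marker mean of all arrays (8.01, against 6.70 in Rbpj replicate 2). The part of leukocytes in its Id1 and Id3 values was not tested. Id3 was 2.17 times higher in ENT than in Lgr5+ISC (1.12, SE 0.24, adjusted p = 0.0035), a call that held with each array left out. It was 1.63 times higher than in Ent-Pro (0.71, SE 0.24, adjusted p = 0.041), a call lost without any one of the Lgr5+ISC, Ent-Pro or ENT arrays (0.64 to 0.78, adjusted p = 0.064 to 0.17). Rbpj Sec-Pro was 1.74 times above Lgr5+ISC (0.79, adjusted p = 0.022), and this was lost without Lgr5+ISC replicate 1 (0.84, 0.071) or 2 (0.75, 0.10) or Rbpj replicate 1 (0.42, 0.12). DBZ Sec-Pro was 1.80 times below ENT (-0.85, adjusted p = 0.017), and this was lost without DBZ replicate 2 (-0.63, 0.12) or ENT replicate 1 (-0.78, 0.086). Without Rbpj replicate 2, Id3 of Rbpj Sec-Pro was called above Ent-Pro (0.76, 0.019) and above DBZ Sec-Pro (DBZ minus Rbpj -0.90, 0.014), and without Rbpj replicate 1 below ENT (-0.70, 0.024). Across the 10 arrays Id1 and Id3 correlated at 0.83, a description over arrays that share groups.

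Id2 had an order of its own. It read 9.04 and 9.25 in Lgr5+ISC, 9.68 and 9.64 in Rbpj-deleted Sec-Pro, 9.97 and 9.69 in DBZ Sec-Pro, 9.30 and 8.96 in Ent-Pro, and 9.90 and 9.66 in ENT villus cells. The arrays fell into a low set, Lgr5+ISC and Ent-Pro, and a high set, both Sec-Pro groups and ENT, with no overlap between the sets. Within the sets no step between neighbouring means passed, and the step between them, from Lgr5+ISC to Rbpj Sec-Pro, was 0.52 (adjusted p = 0.03). Id2 was 1.57 times higher in ENT than in Ent-Pro (0.65, SE 0.16, adjusted p = 0.012) and 1.56 times higher than in Lgr5+ISC (0.64, SE 0.16, adjusted p = 0.01). DBZ Sec-Pro was 0.69 above Lgr5+ISC (adjusted p = 0.011) and 0.70 above Ent-Pro (adjusted p = 0.019), and Rbpj Sec-Pro 0.53 above Ent-Pro (adjusted p = 0.044). The Id2 calls of ENT were lost without ENT replicate 1 (0.53 and 0.52, adjusted p = 0.084 and 0.073), and without Ent-Pro replicate 2 (0.48, 0.11) or Lgr5+ISC replicate 1 (0.54, 0.072). The DBZ calls were lost without DBZ replicate 1 (0.55 and 0.56, 0.076 and 0.10), and without Lgr5+ISC replicate 1 (0.59, 0.071) or Ent-Pro replicate 2 (0.53, 0.14). The Rbpj calls were lost without any array of the groups compared, with differences of 0.36 to 0.70 and adjusted p-values of 0.051 to 0.25, and the one against Ent-Pro also without either Lgr5+ISC (0.057) or ENT array (0.052).

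The 3 probe sets of Id2 did not share this order. The dimmest, 1453596_at, read 6.62 and 7.16 in Lgr5+ISC, 6.36 and 6.07 in Rbpj-deleted Sec-Pro, 5.57 and 5.91 in DBZ Sec-Pro, 5.58 and 5.22 in Ent-Pro, and 5.94 and 5.96 in ENT, with Lgr5+ISC highest. Tested by itself, it was lower in ENT than in Lgr5+ISC (-0.94, adjusted p = 0.0057) and in DBZ Sec-Pro (-1.15, adjusted p = 0.0032), where the probe set used was higher. The other, 1422537_a_at, differed by 0.07 and 0.04 there. From Ent-Pro to ENT the 3 probe sets gave 0.65, 0.66 and 0.55 (adjusted p = 0.013, 0.057 and 0.075), so the rise within Atoh1-/- epithelium had 1 direction and the rise from Lgr5+ISC did not.

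The 2 ways of enriching secretory progenitors differed in Id1 and Bambi. Of the 9 genes, 2 were called between DBZ and Rbpj Sec-Pro, where 16.4% of all genes were called. Id1 was 2.21 times lower after DBZ (-1.15, SE 0.29, 95% interval -1.80 to -0.49, adjusted p = 0.031) and Bambi 2.31 times higher (1.21, SE 0.28, 95% interval 0.57 to 1.85, adjusted p = 0.024). Neither gene's arrays overlapped between the groups. The count of 2 became 0 without Rbpj replicate 1 or DBZ replicate 2, and 1 without DBZ replicate 1 or any Lgr5+ISC or Ent-Pro array. Id1 lost the call without DBZ replicate 2 (-0.70, 0.17), Rbpj replicate 1 (-0.88, 0.13), or any Lgr5+ISC (-1.15, 0.053) or Ent-Pro array (-1.15, 0.051). Bambi lost it without Rbpj replicate 1 (0.77, 0.085) or either DBZ array (1.18 and 1.24, 0.085 and 0.11), and fits of these 2 groups alone called neither (0.14 for Id1 and 0.11 for Bambi). For Ihh the difference was 0.26 (adjusted p = 0.33), for Smad7 -0.20 (adjusted p = 0.41) and for Id3 -0.53 (adjusted p = 0.16), which does not show that these are alike. The mean of 18 leukocyte markers was 8.01 and 6.70 after Rbpj deletion and 6.95 and 7.60 after DBZ, so the replicates of each group lay farther apart than the group means. The mean of 9 stem cell markers was 8.75 and 9.74 after Rbpj deletion and 9.92 and 9.80 after DBZ. Enterocyte markers averaged 13.26 and 13.07 after Rbpj deletion and 12.65 and 12.10 after DBZ, and 5 of the 12 were lower after DBZ and none higher. Of the 8 enteroendocrine markers, 3 were higher after DBZ and none lower. The part of these lists in the differences of Id1 and Bambi was not tested.

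Smo and Ptch1, which receive the hedgehog signal, were lowest in villus cells, where Ihh was highest. Smo, the membrane protein that transmits the signal, read 10.01 and 9.93 in Lgr5+ISC, 8.41 and 8.87 in Rbpj-deleted Sec-Pro, 8.50 and 8.48 in DBZ Sec-Pro, 8.75 and 8.82 in Ent-Pro, and 7.39 and 6.76 in ENT. Its Lgr5+ISC arrays were above and its ENT arrays below all others, the reverse of Ihh. Smo was 3.28 times lower in ENT than in Ent-Pro (-1.71, SE 0.21, adjusted p = 3.4e-04) and 7.43 times lower than in Lgr5+ISC (-2.89, SE 0.21, adjusted p = 1.1e-05). Ptch1, the receptor and also a target of the pathway, read 9.88 and 9.36 in Lgr5+ISC, 7.68 and 8.59 in Rbpj-deleted Sec-Pro, 9.09 and 9.05 in DBZ Sec-Pro, 9.30 and 9.32 in Ent-Pro, and 7.70 and 7.50 in ENT. It was 3.28 times lower in ENT than in Ent-Pro (-1.71, SE 0.28, adjusted p = 0.0012) and 4.07 times lower than in Lgr5+ISC (-2.02, SE 0.28, adjusted p = 2.8e-04). Its second probe set was dimmer, read 5.95 to 6.91 on all arrays, and did not fall (0.34 against Ent-Pro, adjusted p = 0.40, and 0.13 against Lgr5+ISC, adjusted p = 0.74). The gap of Ptch1 between DBZ and Rbpj Sec-Pro (0.94, adjusted p = 0.05, just inside the threshold) was lost with any 1 array left out except Rbpj replicate 2, at 0.48 without Rbpj replicate 1 (adjusted p = 0.19).

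Of the 10 hedgehog reception and transduction genes measured, 2 fell and none rose from Ent-Pro to ENT. Over all genes, 20.2% fell and 18.5% rose there. From Lgr5+ISC to ENT, 3 fell and 1 rose, where 26.8% of all genes fell and 22.3% rose. The other gene that fell from Lgr5+ISC was Sufu, which restrains Gli proteins (-0.83, adjusted p = 0.0049). Its dimmer probe set did not fall (log2 difference 0.17). The gene that rose was Cdon, a co-receptor (0.49, adjusted p = 0.014). Cdon lost its call without Lgr5+ISC replicate 1 (0.34, adjusted p = 0.10) or ENT replicate 1 (0.45, adjusted p = 0.074). Gli1, the transcription factor most used as a readout of hedgehog activity, read 4.98 to 5.48 on the 10 arrays, Gli2 5.02 to 5.80 and Gli3 4.16 to 4.66, and Shh, the other intestinal hedgehog ligand, 3.91 to 4.32. Of 5 genes of hedgehog ligands and their release, 1, Scube2, passed in these 2 comparisons, in opposite directions. It was lower in ENT than in Ent-Pro and higher in ENT than in Lgr5+ISC. Its levels of 4.16 to 4.92 were near background in every group but Ent-Pro. Gli3, Shh and Nog were near background in all groups. Among 6 mesenchymal factors known to respond to hedgehog, Tbx3 was the 1 gene called. Tbx3 is also made by epithelial cells. It read 8.76 and 8.93 in Lgr5+ISC and 10.66 and 10.72 in ENT, 3.59 times higher (1.84, SE 0.17, adjusted p = 3.2e-05), and its dimmer probe set gave -0.18 (adjusted p = 0.48).

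**Figure D4:**
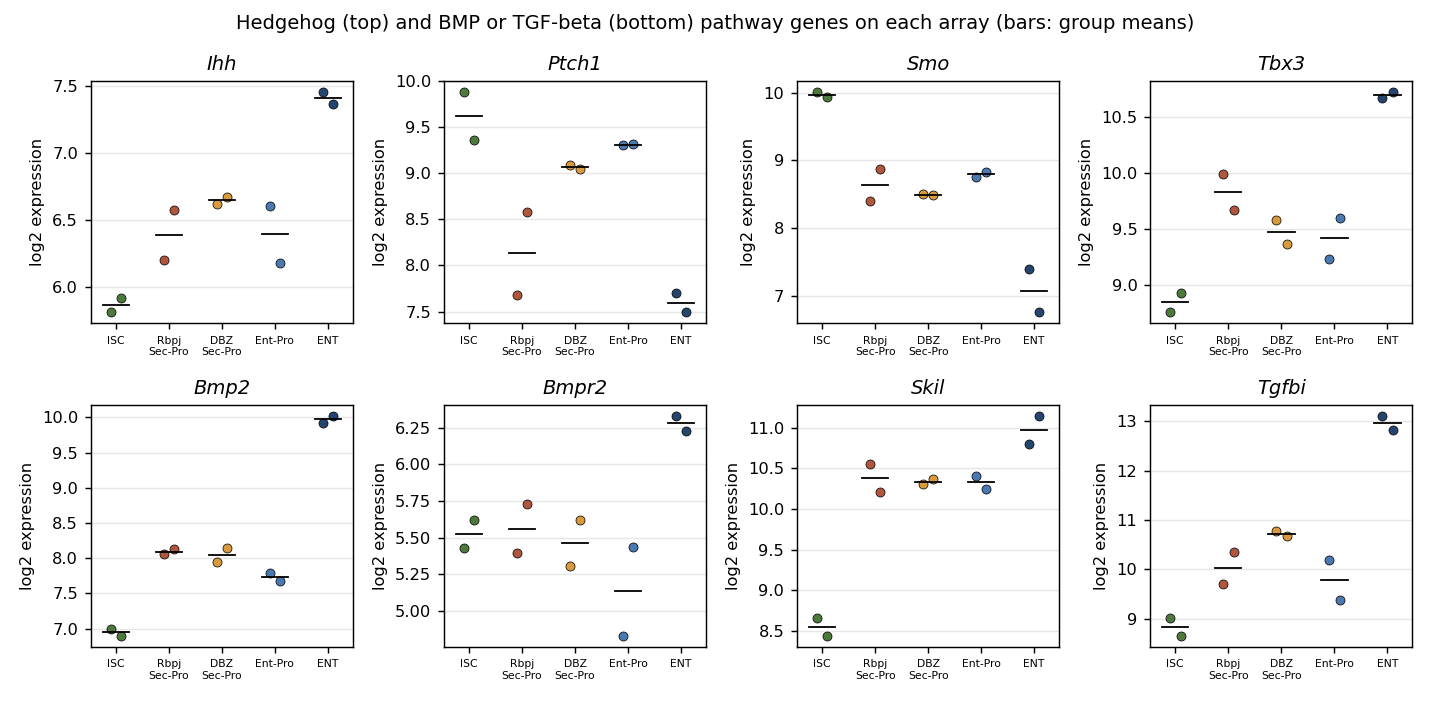
Log2 expression (y axis) of hedgehog genes (Ihh, Ptch1, Smo, Tbx3) and of BMP or TGF-beta genes (Bmp2, Bmpr2, Skil, Tgfbi) on each array (points) in the 5 groups (x axis), with bars at the group means. ENT points are the highest for Ihh, Tbx3, Bmp2, Bmpr2, Skil and Tgfbi and the lowest or among the lowest for Smo and Ptch1.

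Within the Smads and their regulators (18 measured), 3 rose and 2 fell from Ent-Pro to ENT, where 38.7% of all genes were called. From Lgr5+ISC to ENT, 5 rose and 3 fell, where 49.2% were called. Skil, a repressor of Smad-driven transcription, read 8.65 and 8.44 in Lgr5+ISC, between 10.21 and 10.55 on the 6 crypt progenitor arrays, and 10.80 and 11.15 in ENT. It was 5.38 times higher in ENT than in Lgr5+ISC (2.43, SE 0.17, adjusted p = 8.6e-06). The repressor Tgif2 moved the other way and was 4.69 times lower (-2.23, SE 0.26, adjusted p = 1.2e-04), as was the related Tgif1, 2.59 times (-1.38, SE 0.21, adjusted p = 6.2e-04). Id4, a relative of the 3 Id targets, read 7.29 and 7.31 in Lgr5+ISC, 5.04 and 5.41 in Ent-Pro, and 6.10 and 5.56 in ENT, and was 2.78 times lower in ENT than in Lgr5+ISC (-1.47, adjusted p = 0.0084), where Id1, Id2 and Id3 were higher. The Id4 call was lost with its dimmest probe set (-1.35, adjusted p = 0.12) and without ENT replicate 2 (-1.21, adjusted p = 0.063).

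Of 13 secreted BMP antagonists measured, 1 fell from Ent-Pro to ENT, where 38.7% of all genes were called, and 1 rose and 3 fell from Lgr5+ISC to ENT, where 49.2% were. Fstl1, a follistatin-like secreted protein, read 9.78 and 9.32 in Lgr5+ISC, 7.01 and 7.06 in Ent-Pro, and 5.94 and 5.27 in ENT, with all Sec-Pro arrays between 5.12 and 6.15. It was 15.4 times lower in ENT than in Lgr5+ISC (-3.95, SE 0.34, adjusted p = 2.3e-05), a wider gap than that of any of the 9 genes between these groups. Grem1 (5.08 to 5.50) and Chrd (5.21 to 5.73), antagonists made by the mesenchyme, had narrow ranges over the 10 arrays, and Nog read 3.87 to 4.54. In the list of 12 TGF-beta and activin genes, 2 rose and 1 fell from Ent-Pro to ENT, against the same 38.7% of all genes. Tgfbi, a matrix protein induced by TGF-beta, read 9.02 and 8.66 in Lgr5+ISC, 10.20 and 9.38 in Ent-Pro, and 13.12 and 12.82 in ENT, 9.08 times above Ent-Pro (3.18, SE 0.29, adjusted p = 9.3e-05). Tgfbr1, a type I receptor, was 2.09 times lower in ENT than in Ent-Pro (-1.06, SE 0.25, adjusted p = 0.0093). Tgfbr1 lost that call with its dimmest probe set (-0.02, adjusted p = 0.94) and without ENT replicate 1 (-0.80, adjusted p = 0.072) or Ent-Pro replicate 1 (-1.04, 0.05).

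Markers of other cells moved between the groups as well. The mean of 18 leukocyte markers was 5.88 and 6.06 in Lgr5+ISC, 6.16 and 6.18 in Ent-Pro, and 6.96 and 7.14 in ENT, and 6 of them rose and 1 fell from Ent-Pro to ENT. Ptprc, the pan-leukocyte gene, read 4.40 and 4.56 in Lgr5+ISC, 6.18 and 6.06 in Ent-Pro, and 8.39 and 9.06 in ENT. Tuft cell markers (7 genes) averaged 6.12 and 5.66 in Ent-Pro and 8.93 and 8.50 in ENT, and all 7 rose. The mean of 20 stromal markers stayed between 5.19 and 5.70 on all arrays, and none of the 20 was called from Ent-Pro to ENT. Col1a1 was at 4.82 to 5.38 and Pdgfra, a marker of the mesenchymal cells that make Bmp4, at 3.87 to 4.63. Other stromal genes were less even. Vim read 5.26 to 10.42, highest in Rbpj replicate 1, and Dcn 5.08 to 8.76, highest in DBZ replicate 2. Between Rbpj Sec-Pro and ENT, 10 of the 20 were lower in Rbpj Sec-Pro and 1 was higher. Immediate-early genes (13), which respond quickly to handling of cells, averaged 10.88 and 10.95 in Lgr5+ISC, 7.45 and 7.61 in Ent-Pro, and 8.76 and 8.59 in ENT. All 13 fell from Lgr5+ISC to Ent-Pro, and 9 rose and 2 fell from Ent-Pro to ENT. Of the 12 enterocyte markers, 10 rose from Ent-Pro to ENT and none fell. Of the 9 stem cell markers, 7 fell there and none rose. From Ent-Pro to ENT, the leukocyte, tuft, immediate-early and enterocyte lists thus moved with the rises of Ihh, Id2, Id3, Smad6 and Smad7, and the stem cell list moved against them. From Lgr5+ISC to ENT, 10 of the 13 immediate-early genes fell and none rose. In that comparison 9 of the 18 leukocyte markers rose and 3 fell, and 6 of the 7 tuft markers rose. All 12 enterocyte markers rose there and all 9 stem cell markers fell. The part of these lists in the rises of the 5 genes was not tested.

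**Figure D5:**
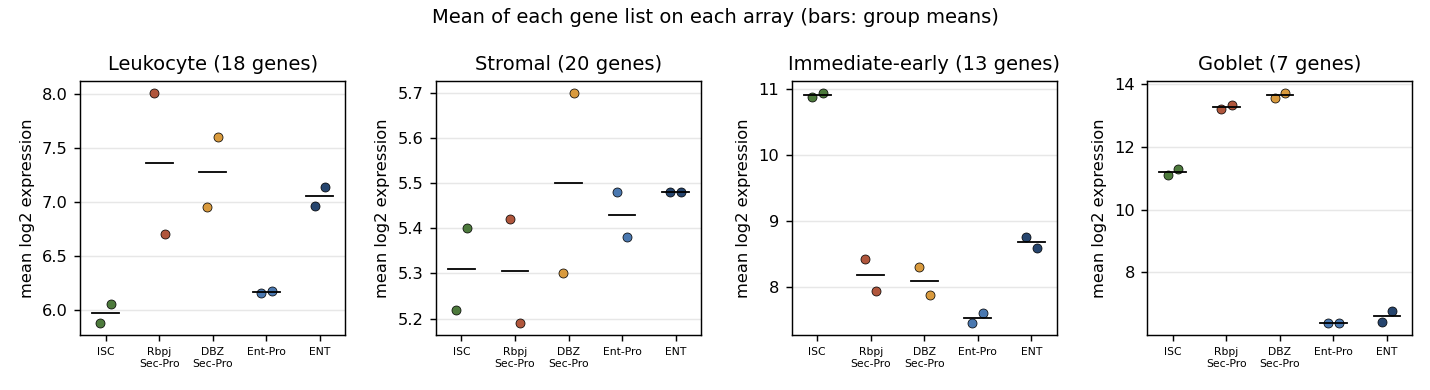
Mean log2 expression (y axis) of leukocyte (18 genes), stromal (20), immediate-early (13) and goblet cell (7) gene lists on each array (points) in the 5 groups (x axis), with bars at the group means; each panel has its own scale. Leukocyte means are higher in ENT than in Ent-Pro, stromal means span 5.19 to 5.70, immediate-early means are highest in Lgr5+ISC, and goblet means are lowest in both Atoh1-/- groups.

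Some genes followed these patterns closely over the 10 arrays. For each of the 6 genes whose group means ranged over at least 1 log2, the 3 genes with the highest Pearson r were taken among 5037 genes with such a range, as a description. Ihh was most like Smim7 (0.985), Tgfbi (0.984) and Hagh (0.956). Smad7 was most like Nadk (0.979), Tmem189 (0.976) and Ap2a2 (0.973), and Smad6 most like Ccs (0.961), Nags (0.953) and Esrra (0.952). For Bambi these were Hpd (0.996), Tecpr1 (0.984) and Tbc1d8 (0.984). Id3 was most like Fez2 (0.974), Rhebl1 (0.972) and Baiap2l1 (0.971), and Id1 most like Slc5a6 (0.935), Ccl25 (0.934) and Tmem150b (0.928). Among the 9 genes, Ihh and Smad7 correlated at 0.87, Smad6 and Smad7 at 0.84, and Bambi and Smad6 at -0.73. The 10 arrays fall into 5 groups, so these values rest on few distinct conditions.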

How the data were processed

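Total RNA of 10 samples was hybridised to Affymetrix 430A 2.0 arrays, 1 sample per array. The authors deposited log2 expression values per probe set. The submitters' processing notes name RMA and MAS5 with no roles or versions. The value range and the log2 scale are like RMA output, but background correction and scaling are not given in the sources used here and were not redone.

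Of 22690 probe sets, 20393 carry 1 gene symbol in the platform table, 691 several and 1606 none; only the first kind was used, without control probe sets. Symbols were updated through Entrez identifiers (20364 matched, 0 changed). Each of 12393 genes was represented by its probe set with the highest mean. Group means were fitted to all 10 arrays with limma 3.58.1 in R 4.3.3 (lmFit and eBayes), with Benjamini-Hochberg adjustment over all genes within each of 10 pairwise comparisons. The fit was tested on simulated data. SDs are over the 2 arrays of a group, and that number limits the precision.

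The 9 genes and all gene lists were chosen with earlier results of these data known. Genes named from the other BMP, TGF-beta and hedgehog lists are, per list, up to 4 called in any comparison, by the largest range of group means. Bmp1, Gli1, Gli2, Gli3, Shh, Grem1 and Chrd were added after their values were seen. Alternatives were array centring, cyclic loess, an intensity trend, other choices of probe set, fits of 2 groups, a filter on dim genes, a replicate block and each array left out. Promoters are those of RefSeq (GRCm38.p6).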

Additional observations from a re-analysis of the deposited data

Results flagged for a closer look

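Id1 and Bambi differed between the 2 ways of enriching secretory progenitors when these were compared directly. In that comparison 16.4% of all genes were called. Id1 was lower after DBZ than after Rbpj deletion (log2 difference -1.15, SE 0.29, limma adjusted p = 0.031), and Bambi was higher (1.21, SE 0.28, adjusted p = 0.024). Against Lgr5+ISC, Id1 read -0.50 in DBZ Sec-Pro and 0.65 in Rbpj Sec-Pro, neither of them called, and Bambi 2.06 and 0.85, both called. Both differences rest on 2 arrays a group, and neither was called when these 2 groups were fitted alone.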

How the results depend on the processing

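Of the 40 calls among 90 tests of the 9 genes, 19 kept call and direction under every alternative that gave a value, 21 were lost with at least 1 array left out, and 11 were lost and 6 turned direction under another setting. The total was 38 to 44 calls with other scalings, an intensity trend, the mean or the dimmest of the probe sets, or adjustment over all comparisons (the last chosen after seeing the data), 35 when only the groups compared were fitted, and 27 to 39 with 1 array left out. A filter on genes above the median level kept 5 of the 9 genes and the same number of their calls in each comparison, so the count over all 9 has no value there. Signal near background limits Bmp4, Gli3, Shh, Nog and Scube2.

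The count of called genes moved past 1.5 times, beside left-out arrays, in few cases. With only 2 groups fitted it was 2 for Rbpj Sec-Pro against Lgr5+ISC (5 as reported), 1 for Rbpj Sec-Pro against Ent-Pro (2) and 0 for DBZ against Rbpj Sec-Pro (2). With centred arrays it was 1 for Rbpj Sec-Pro against Ent-Pro, and with the mean or the dimmest of the probe sets 1 for DBZ Sec-Pro against Ent-Pro (2). With each array left out, the count ran from 1 to 4 for Ent-Pro against Lgr5+ISC, 2 to 5 for ENT against Ent-Pro, 4 to 7 for ENT against Lgr5+ISC, 1 to 6 for Rbpj Sec-Pro and 3 to 4 for DBZ Sec-Pro against Lgr5+ISC, 1 to 2 for either against Ent-Pro, 3 to 4 and 5 to 6 for Rbpj and DBZ Sec-Pro against ENT, and 0 to 3 for DBZ against Rbpj Sec-Pro. The cause was not tested, other than the fewer arrays.

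Directions turned mostly with the probe set. With the dimmest probe set, Bmpr1a gave -0.24 in Ent-Pro, -0.22 in ENT, -0.67 in Rbpj Sec-Pro and -0.17 in DBZ Sec-Pro against Lgr5+ISC, -0.43 and -0.44 in Rbpj Sec-Pro against Ent-Pro and ENT, and 0.49 for DBZ minus Rbpj Sec-Pro. Id2 gave -0.94, -0.67 and -1.15 in ENT, Rbpj and DBZ Sec-Pro against Lgr5+ISC. Ptch1 gave 0.34 and 0.13 in ENT against Ent-Pro and Lgr5+ISC and -0.11 for DBZ minus Rbpj Sec-Pro, Sufu 0.09 and 0.17 in Ent-Pro and ENT against Lgr5+ISC, and Tbx3 -0.13 and -0.18 there and -0.04 in ENT against Ent-Pro. With the mean of the probe sets, Id2 gave -0.08 in ENT and -0.14 in DBZ Sec-Pro against Lgr5+ISC, and Bmpr1a -0.04 in Rbpj Sec-Pro against ENT. Centring turned differences near 0, to 0.11 for Id2 in Ent-Pro and 0.01 for Bmp4 in ENT against Lgr5+ISC, and -0.02 for Bmpr1a in Rbpj Sec-Pro against Ent-Pro. Left-out arrays turned Id2 in Ent-Pro against Lgr5+ISC to 0.09 (without Lgr5+ISC replicate 2) and 0.16 (without Ent-Pro replicate 2). Without Rbpj replicate 2, Bmpr1a in Rbpj Sec-Pro turned to -0.07 against Ent-Pro and Id3 to 0.05 against ENT, where the arrays left out gave ranges of -0.07 to 0.14 and -0.70 to 0.05.

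Replicate numbers are shared between groups, but the differences between replicates 1 and 2 correlated at only -0.19 to 0.17 between groups (10 pairs), so they were not taken as pairs. With a replicate block, 40 of 90 tests were called, as without it. Under the block, Ihh in Rbpj Sec-Pro against Lgr5+ISC (0.52, adjusted p = 0.051) and Smad7 in Ent-Pro against Lgr5+ISC (0.53, 0.053) were lost, and Id1 was gained in Rbpj Sec-Pro against Lgr5+ISC (0.65, 0.028) and in DBZ Sec-Pro against Ent-Pro (-0.77, 0.033).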

Other observations

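Tob1 and Tob2, relatives of each other that restrain proliferation and can bind Smads, were both higher in ENT than in Ent-Pro. Tob1 was 1.78 times higher in ENT than in Ent-Pro (log2 difference 0.83, limma adjusted p = 0.0032) and 2.35 times higher than in Lgr5+ISC (1.23, adjusted p = 2.1e-04). Tob2 was 1.61 times higher than in Ent-Pro (0.69, adjusted p = 0.0068) by the probe set used. Its 4 probe sets did not share a direction from Lgr5+ISC to ENT: the one used read 9.71 and 9.79 in Lgr5+ISC and 10.97 and 10.65 in ENT, and another read 9.67 and 9.47 and then 9.44 and 9.24. Both belong to the list of Smads and their regulators, and they were singled out after their values were seen.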
